A study of Mus musculus with 160 samples.

Results

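*Phox2a*, *Isl1*, *Hand1*, *Hand2*, *Insm1*, *Tfap2a*, *Tfap2b* and *Sox11* are 8 transcription factor genes of the sympathoadrenal lineage, and their RNA was followed in cells sorted by a *Gata3*-GFP reporter. They were taken by symbol from the 46078 genes of the deposited count table, and all 8 were found. Smart-seq2, which copies whole transcripts from small cell numbers, was run on pools of 20 cells from the aorta-gonad-mesonephros (AGM) region of mouse embryos. Every embryo had the genotype Gata3-GFP +/-, so that the GFP− pools also carried 1 GFP knock-in allele of *Gata3*, and the embryos came from crosses that included C57BL/6J mice. Endothelial cells (ECs, sorted with VE-cadherin and without CD41 and CD45) and haematopoietic cells (HCs, sorted by CD41 and CD45) were of E10.5, and *Pdgfrb*-expressing mesenchymal cells (MCs) and *Ngfr*-expressing (p75+) sympathetic nervous system cells (SNS) were of E11.5. Each cell type was split into GFP+ and GFP−, which gave 8 populations with 20 pools each and 160 pools in all. For ECs and HCs, the cells of 2 to 6 embryos were pooled in each of 3 to 5 biological replicates. The columns do not tie a pool to a replicate, so the p-values measure the spread between pools, part of which may be technical.

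The sympathoadrenal lineage arises from neural crest cells that settle beside the dorsal aorta and become sympathetic neurons and adrenal chromaffin cells. Signals from the aorta start this programme, and the homeodomain factors PHOX2A and ISL1, the basic helix-loop-helix factors HAND1 and HAND2, the zinc finger factor INSM1 and the GATA factors then act in a network that turns on the genes of noradrenaline synthesis, *Th* and *Dbh* among them. The AP-2 factors TFAP2A and TFAP2B act from the neural crest stage onward, and SOX11 is present in many kinds of embryonic progenitor, neuronal ones included. Isl1, Hand1 and Hand2 are also used in mesoderm, among others in the heart, so that none of these 3 is specific to the nervous system.

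In the mouse genome build GRCm38 the genes lie at chr7:101818313-101822726 (*Phox2a*, plus strand), chr13:116298281-116309689 (*Isl1*, minus strand), chr11:57828705-57832818 (*Hand1*, minus strand) and chr8:57320983-57324633 (*Hand2*, plus strand). *Insm1* lies at chr2:146221921-146225020 (plus strand), *Tfap2a* at chr13:40715302-40738376 (minus strand), *Tfap2b* at chr1:19208914-19238576 (plus strand) and *Sox11* at chr12:27334264-27342574 (minus strand). All are annotated as protein-coding. An antisense gene, *Hand2os1*, covers 19.6% of the exon bases of *Hand2*, *Gm26688* covers 7.75% of those of *Tfap2a* and *Inppl1* covers 4.67% of those of *Phox2a*, all from the opposite strand. The sources used here do not state whether the counting used strand, so reads in these stretches cannot be told apart.

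Because the populations were separated by a GATA factor reporter, the promoters were searched for GATA motifs. RefSeq promoter windows (build GRCm38.p6) were found for 6 of the 8 genes, *Hand1* and *Insm1* being the others, and the 250 bases before the RefSeq gene start were searched on both strands for the motif AGATAA, its variant ending in G (AGATAG), and the same pair of motifs with T as the first letter (TGATAA, and with a final G, TGATAG). Of all 32851 windows, 26.5% held at least 1 of these motifs, and among the 6 genes *Hand2*, *Isl1* and *Sox11* did. The sequences below are those of the 3 genes with the motif and of *Phox2a*, which has none. Among the pools used, *Hand2* and *Isl1* were each higher in GFP+ pools of more than 1 cell type, and *Sox11* moved in both directions. *Phox2a* was higher in GFP+ SNS pools. Its higher level in GFP+ HC pools is a description only, since the filter on low counts set its direction. A link between the motif and the GFP sort was not tested. Motifs are in capitals and each sequence is written 5′ to 3′ on the strand of its gene.
Isl1 (chr13:116309689-116309938, minus strand): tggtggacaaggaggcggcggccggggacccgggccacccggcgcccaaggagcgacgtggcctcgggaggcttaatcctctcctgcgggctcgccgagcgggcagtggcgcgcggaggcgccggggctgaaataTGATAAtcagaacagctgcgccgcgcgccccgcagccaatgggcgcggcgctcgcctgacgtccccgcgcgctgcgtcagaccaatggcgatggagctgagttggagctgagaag
Hand2 (chr8:57320733-57320982, plus strand): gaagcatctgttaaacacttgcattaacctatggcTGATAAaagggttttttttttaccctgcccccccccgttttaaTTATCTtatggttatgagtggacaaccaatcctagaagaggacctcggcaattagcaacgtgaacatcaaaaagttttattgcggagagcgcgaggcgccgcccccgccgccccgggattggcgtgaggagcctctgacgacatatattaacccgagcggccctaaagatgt
Sox11 (chr12:27342719-27342968, minus strand): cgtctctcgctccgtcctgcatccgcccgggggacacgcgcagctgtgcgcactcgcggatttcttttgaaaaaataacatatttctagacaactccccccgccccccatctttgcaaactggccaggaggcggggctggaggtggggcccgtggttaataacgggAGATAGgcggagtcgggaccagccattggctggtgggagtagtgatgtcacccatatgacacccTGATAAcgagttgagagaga
Phox2a (chr7:101818063-101818312, plus strand): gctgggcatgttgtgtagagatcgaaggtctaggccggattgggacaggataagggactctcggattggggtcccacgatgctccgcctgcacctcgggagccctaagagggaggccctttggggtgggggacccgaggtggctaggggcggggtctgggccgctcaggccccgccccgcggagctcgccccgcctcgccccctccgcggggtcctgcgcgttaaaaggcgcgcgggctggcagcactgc
*Isl1* held 1 motif, which begins 115 bases before the RefSeq start. *Hand2* held 2, at 215 and 172 bases, and *Sox11* held 2, at 84 and 20 bases. The RefSeq start of *Sox11* lies upstream of the GENCODE gene start given above, so that these distances are not counted from the latter. All 250 bases shown for *Hand2* also lie within an annotated exon of *Hand2os1* on the opposite strand. A match is a run of letters and not a binding site, and binding was not measured in these samples.

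Of the 160 pools, 153 passed the limits on reads and spike-ins, and these limits did not use the 8 genes. Among the 153, 12 pools went against their cell type label: in each of the 4 E11.5 populations, the last 3 columns had more raw *Pdgfrb* than *Ngfr* counts in SNS or more *Ngfr* than *Pdgfrb* counts in MCs. They were left out, and 141 pools were used, with 15 GFP+ and 16 GFP− SNS, 17 GFP+ and 14 GFP− MC, 20 GFP+ and 20 GFP− HC, and 19 GFP+ and 20 GFP− EC pools. The used pools had 1400824 to 16004756 counts on genes, so that 3 counts, the floor used here, stood for 0.187 to 2.14 CPM (counts scaled to the same total in every pool). *Gata3* itself was higher in GFP+ than in GFP− pools of every cell type, by 2.10 ± 0.23 (SE) in SNS, 1.88 ± 0.22 in MCs, 2.89 ± 0.26 in HCs and 2.66 ± 0.22 in ECs on the log2 scale. *Ptprc*, which encodes CD45, was detected (at least 10 counts) in all 40 HC pools, *Cdh5*, which encodes VE-cadherin, in all 39 EC pools, and *Sox10*, a neural crest gene, in all 31 SNS pools.

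In the left-out pools several sympathoadrenal factors were at levels that no used pool of the same label had. The 3 left-out GFP− MC pools held 180, 642 and 883 CPM (not TMM-scaled) of *Isl1*, and the highest used GFP− MC pool held 25.3. They held 28.8, 79.8 and 117 CPM of *Phox2a*, where the highest used pool held 0.904, and for 7 of the 8 factors, *Sox11* being the other, all 3 were above every used GFP− MC pool. The 3 left-out GFP+ MC pools were above every used GFP+ MC pool for *Insm1*, *Tfap2a* and *Tfap2b*, with 31.0, 65.4 and 80.0 CPM of *Tfap2b* against at most 8.21. The share of all genes above every used pool was counted for neither MC population. *Isl1* was lower in these GFP+ MC pools, at 0.218 to 32.6 CPM, than in every used one. The left-out SNS pools were low for *Insm1*, *Tfap2a* and *Tfap2b*, with 0.468 to 1.78 CPM of *Tfap2b* in the GFP+ and 0.472 to 0.975 in the GFP− pools, where the used pools held at least 62.3 and 41.9. *Gata3* also ran against the GFP label in part of them, at 129 to 413 CPM in the left-out GFP− MC pools and 10.3 to 23.5 in the left-out GFP+ SNS pools. These pools were given to no other population, and each E11.5 fold change of a factor below whose sign or call changed with them is given with and without them. The levels, orders, correlations, spreads and marker lists are those of the used pools only.

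**Figure D1:**
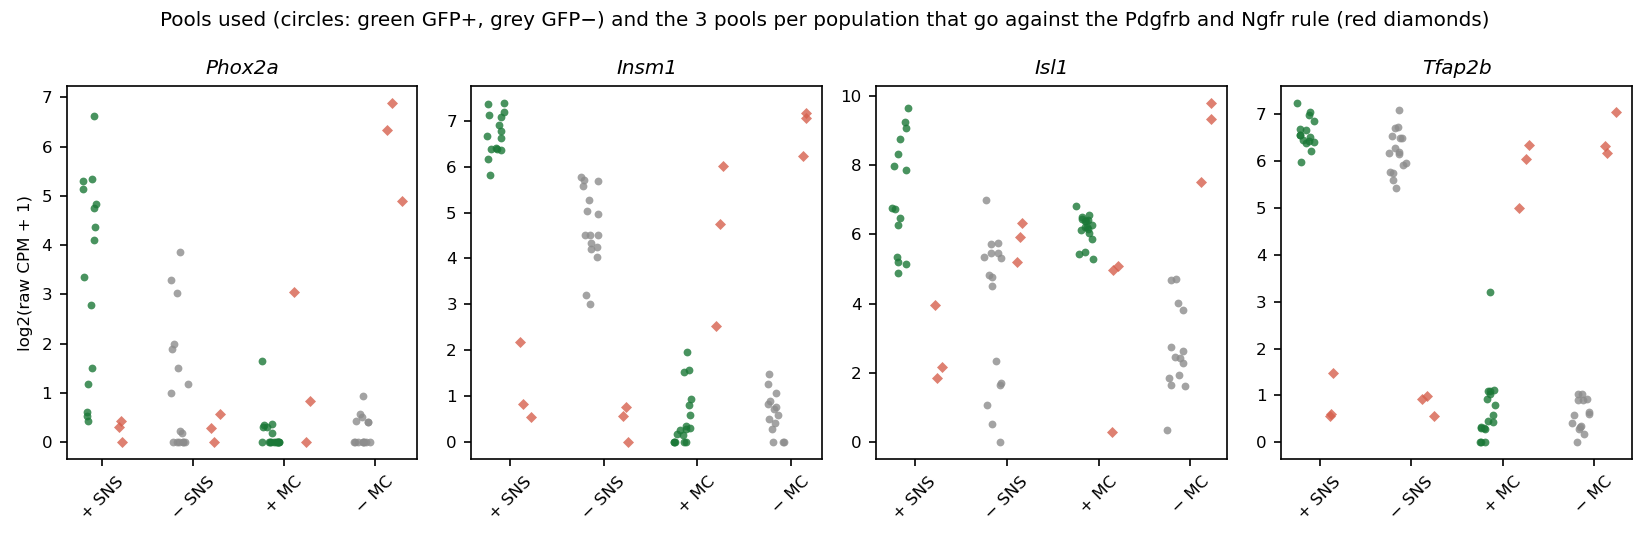
Raw CPM on a log2(CPM + 1) axis for 4 of the factors in the 4 E11.5 populations, with 1 circle for each used pool (green GFP+, grey GFP−) and 1 red diamond for each of the 3 left-out pools of a population. The diamonds of *Tfap2b* lie low in both SNS populations and high in both MC populations, opposite to the circles.

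All 8 factors were detected in SNS, and the GFP+ SNS pools held the most of them. In GFP+ SNS pools a median of 8 factors were detected per pool (range 6 to 8) and in GFP− SNS pools 6 (range 4 to 8). Per kilobase of exon, the scale on which genes can be compared, the medians in GFP+ SNS pools ran from 69.4 CPM per kb for *Sox11* through 30.9 for *Insm1*, 25.5 for *Isl1*, 14 for *Tfap2b*, 9.09 for *Hand2*, 7.37 for *Phox2a* and 2.70 for *Hand1* to 2.28 for *Tfap2a*. Between GFP+ and GFP− SNS pools, 10.4% of the 15658 genes tested were called (edgeR quasi-likelihood test, with a log2 fold change of more than 0.1 in size and p adjusted by Benjamini-Hochberg to under 0.01), 4.94% of them higher and 5.48% lower in GFP+. Of the 8 factors 5 rose in GFP+, 1 fell and 2 were not called. Scaled by the spike-in RNAs in place of TMM, 91.9% of all calls were higher in GFP+ in place of 47.4%, since this scaling moved the median log2 fold change of all genes by 0.45, and 7 of the 8 factors were then called higher and 0 lower. By the overestimated-variance test that the study used, 3 factors were called higher, and *Phox2a* (adjusted p = 0.011) and *Hand2* (adjusted p = 0.041) were not. In bulk pools, fewer cells of a type and less RNA per cell cannot be told apart.

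The homeodomain factors differed by the largest folds. *Phox2a*, which promotes noradrenergic differentiation, ranged from 0.327 to 93.6 CPM in GFP+ SNS pools with a median of 15, and from 0 to 13.1 with a median of 0.535 in GFP− SNS pools. It was detected in 10 of 15 GFP+ and 4 of 16 GFP− pools, and 8 of the GFP+ pools lay above every GFP− pool. The rise was 3.11 ± 0.77 (SE) on the log2 scale (adjusted p = 0.0037). *Isl1*, which is needed for the survival and maturation of sympathetic neurons, ranged from 27.0 to 766 CPM in GFP+ pools with a median of 101, and from 0 to 120 with a median of 25.7 in GFP− pools. Its rise was 3.03 ± 0.61 (adjusted p = 0.00045), and the groups overlapped, with 7 GFP+ pools above every GFP− pool and 9 GFP− pools below every GFP+ pool.

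*Hand2* and *Insm1* rose as well. *Hand2*, which drives noradrenergic differentiation, had 2.63 to 140 CPM in GFP+ SNS pools with a median of 21.4, and 0.154 to 24.8 with a median of 5.94 in GFP− pools. Its rise was 2.16 ± 0.54 (adjusted p = 0.0039). *Insm1*, which promotes the differentiation of sympathoadrenal progenitors, had 52.5 to 158 CPM in GFP+ pools with a median of 95.8, and 6.61 to 51.0 with a median of 21.1 in GFP− pools. It was the only one of the 8 whose GFP+ and GFP− SNS pools did not overlap, though the 3 left-out GFP+ SNS pools, at 0.468 to 3.55 CPM (not TMM-scaled), lay below every used GFP− pool. The share of all genes without overlap was not counted, here or in MCs and ECs. *Insm1* rose by 1.93 ± 0.23 (adjusted p = 1.9e-07). *Hand1*, the paralog of *Hand2*, had medians of 5.40 CPM (0 to 31.6) in GFP+ and 0.245 (0 to 10.9) in GFP− pools, and its log2 fold change of 1.91 ± 0.73 was not called (adjusted p = 0.071), while with spike-in scaling it was 2.38 ± 0.73 (adjusted p = 0.0089).

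The AP-2 factors and *Sox11* moved little. *Tfap2a* was the only one of the 8 that fell, from a median of 19.2 CPM (10.7 to 28.1) in GFP− to 11.2 (6.27 to 21.1) in GFP+ SNS pools, with a log2 fold change of -0.67 ± 0.18 (adjusted p = 0.0070). This call was lost with spike-in scaling (-0.20 ± 0.22), with the left-out pools kept (adjusted p = 0.42), without the filter on low counts (adjusted p = 0.014) and in a fit of all 4 E11.5 populations (adjusted p = 0.17). *Tfap2b* had 59.3 to 143 CPM in GFP+ and 39.0 to 131 in GFP− pools with medians of 88.8 and 69.4, and its log2 fold change of 0.35 ± 0.14 was not called (adjusted p = 0.092), while with spike-in scaling it was 0.77 ± 0.20 (adjusted p = 0.0027). *Sox11* rose from a median of 387 CPM (328 to 697) to 577 (354 to 820), by 0.46 ± 0.11 on the log2 scale (adjusted p = 0.0020). With the 6 left-out SNS pools kept, 3 of the 8 factors were called in place of 6 (*Insm1*, *Isl1* and *Sox11*, all higher), and *Phox2a* and *Hand2* kept their sign at 3.07 ± 0.81 (adjusted p = 0.012) and 1.95 ± 0.52 (adjusted p = 0.013).

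**Figure D2:**
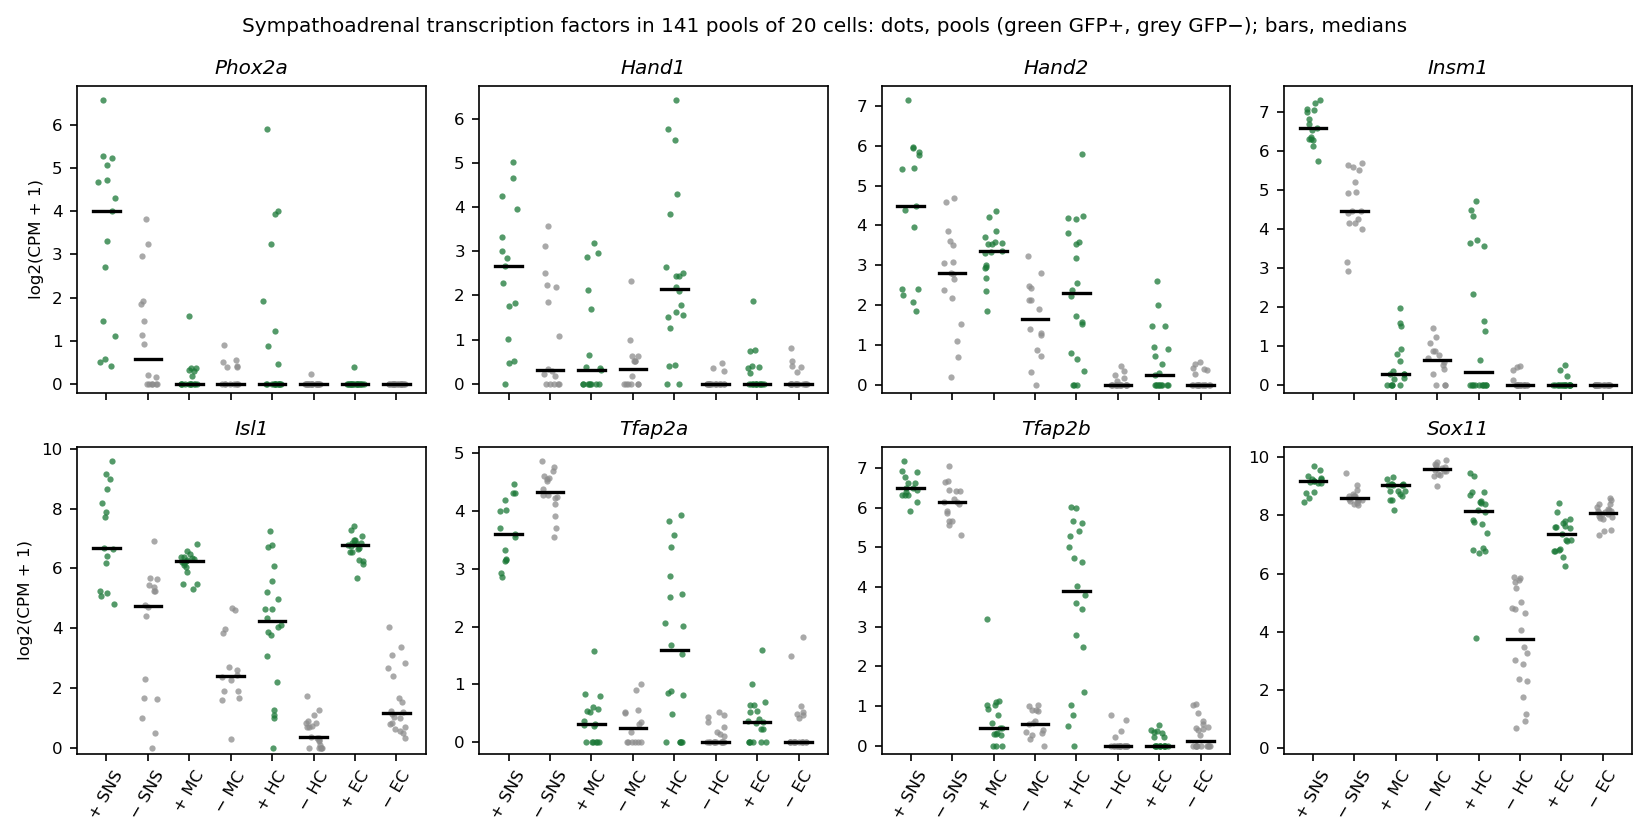
Each factor in all 141 used pools on a log2(CPM + 1) axis, with 1 dot for each pool (green GFP+, grey GFP−) and a bar at the median of each population. *Insm1* in SNS and *Isl1* in MCs and ECs are the cases with no overlap between GFP+ and GFP− pools among the used pools, and *Sox11* is high in every population but GFP− HCs. The share of all genes with no overlap was not counted.

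The other genes of the pathway, taken from a fixed list, moved as follows in SNS. Of 20 noradrenergic and neuronal effector genes 18 were tested, 15 rose and none fell. They included *Th* (3.59 ± 0.58 on the log2 scale), the rate-limiting enzyme of catecholamine synthesis, and *Dbh* (2.79 ± 0.65), which makes noradrenaline. Of 13 further regulators 7 rose and none fell, *Tlx2* (2.48 ± 0.23) among them. This list holds *Gata3*, whose reporter set the sort, and *Gata3* is counted among its rises in every cell type. Among the family relatives, *Insm2* rose (3.21 ± 0.77), *Tfap2c* fell (-3.10 ± 0.61), and *Sox4* (-0.20 ± 0.11) and *Sox12* (-0.29 ± 0.12) were not called. The median log2 fold change of all genes tested was -0.011 (TMM).

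Markers of other cells moved with the same split. Of 9 mesenchymal genes 8 fell in GFP+ SNS, and their summed level was 137 to 829 CPM in GFP+ and 911 to 1947 in GFP− pools. Of 6 adrenocortical and coelomic genes 5 were tested and 4 fell, *Wt1* by 6.29 ± 0.44 on the log2 scale, with sums of 0.589 to 17.8 and 11.6 to 366 CPM. The median GFP+ pool had 0 counts of *Nr5a1*, *Cyp11a1*, *Gata4* and *Nr0b1*. A gene that reached 10 counts in GFP− pools alone had to be lower in GFP+, and how many did so was not counted. Of 10 neural crest and Schwann cell precursor genes 3 fell, *Foxd3* and *Ngfr* among them, with sums of 696 to 2071 CPM in GFP+ and 1693 to 2577 in GFP− pools. The part of these cells in the values of the 8 factors was not tested. *Ngfr*, and *Pdgfrb* among the mesenchymal genes that fell, were the genes used to leave out pools.

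The factors split into variable and even ones within the GFP+ SNS pools. The standard deviation was 122% of the mean for *Phox2a*, 113% for *Hand1*, 105% for *Hand2* and 99.9% for *Isl1*, but 40.2% for *Tfap2a*, 30.8% for *Insm1*, 23.4% for *Tfap2b* and 22.4% for *Sox11*. As a description over 15 pools, which share their libraries and the closed scale of CPM, Pearson's r of log2(CPM + 1) between *Phox2a* and *Hand2* was 0.97, between *Phox2a* and *Isl1* 0.96 and between *Hand2* and *Isl1* 0.95. The same 3 factors had r of 0.94 (*Phox2a*), 0.96 (*Hand2*) and 0.92 (*Isl1*) with *Th*, and of -0.69, -0.67 and -0.79 with the glial and progenitor gene *Sox10*. *Insm1* had its highest r among the factors with *Sox11* (0.91), and *Tfap2a* had r of -0.74 with *Phox2a* and -0.80 with *Th*. *Tfap2b* stayed between -0.51 and 0.29 with the other factors, and *Hand1* between -0.36 and 0.49.

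In MCs the picture came down to *Isl1*, *Hand2* and *Sox11*. *Phox2a*, *Insm1*, *Tfap2a* and *Tfap2b* had too few counts to be tested: each was detected in at most 2 of the 17 GFP+ and in none of the 14 GFP− MC pools. Between GFP+ and GFP− MC pools 10.4% of the 15226 genes tested were called, 5.52% higher and 4.89% lower. Of the 4 factors tested 2 rose, 1 fell and 1 was not called. With spike-in scaling 81.8% of all calls were higher in place of 53.0%, and the 3 calls on the factors kept their direction.

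*Isl1* had 38.6 to 111 CPM in GFP+ MC pools with a median of 76.0, and 0.240 to 24.7 with a median of 4.29 in GFP− pools. The groups did not overlap in the used pools, while all 3 left-out GFP− MC pools lay above every GFP+ pool, and the rise was 3.17 ± 0.36 on the log2 scale (adjusted p = 5.7e-08). *Hand2* was detected in all 17 GFP+ pools, at 2.63 to 19.4 CPM with a median of 9.24, and in 8 of 14 GFP− pools, at 0 to 8.43 with a median of 2.20. Its rise was 1.78 ± 0.41 (adjusted p = 0.0017), which became 1.54 ± 0.44 (adjusted p = 0.012) with the 3 GFP− MC pools that failed the read limits. *Sox11* went the other way, from a median of 775 CPM (509 to 947) in GFP− to 522 (292 to 641) in GFP+ MC pools, with 13 of 14 GFP− pools above every GFP+ pool. It fell by 0.70 on the log2 scale, with an SE of 0.089 (adjusted p = 4.0e-07). *Hand1* had medians of 0.250 CPM (0 to 8.10) and 0.278 (0 to 4.01), and its log2 fold change of 1.56 ± 0.94 was not called (adjusted p = 0.29).

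The left-out pools decided the sign of these differences. With the 6 left-out MC pools kept, *Isl1* had a log2 fold change of -0.67 ± 0.69 (adjusted p = 0.62), *Hand2* -0.68 ± 0.58 (adjusted p = 0.54) and *Hand1* -2.87 ± 0.99 (adjusted p = 0.060). *Phox2a* was then tested and lower in GFP+ (-4.49 ± 1.10, adjusted p = 0.0062), and the fall of *Sox11* stayed at -0.70 ± 0.085 (adjusted p = 5.6e-07). Of the 20 effector genes 10 were tested in the used MC pools, 1 rose and 1 fell, and of 13 further regulators 10 were tested and 1 rose, *Gata3*. Of the 9 mesenchymal genes 5 rose, *Pdgfrb*, the marker of the sort, among them, and 1 fell. Their sums were 4263 to 6162 CPM in GFP+ and 2695 to 4161 in GFP− MC pools. *Sox10* was detected in 2 of the 17 GFP+ MC pools, all of which held *Isl1*.

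Set against MCs of the same GFP sort, the SNS pools were higher for most of the factors. *Insm1*, *Tfap2b*, *Phox2a* and *Tfap2a*, which had too few counts to be tested within MCs, entered this fit through the SNS pools and had to be higher there, so that their values are a description. Between GFP+ SNS and GFP+ MC pools 37% of 17309 genes were called, 18.9% of them higher in SNS. Of the 8 factors 6 were higher in SNS and none was lower: *Insm1* by 7.51 ± 0.39 on the log2 scale, *Tfap2b* by 6.66 ± 0.32, *Phox2a* by 6.28 ± 0.84, *Tfap2a* by 5.10 ± 0.40, *Hand2* by 1.89 ± 0.46 and *Isl1* by 1.70 ± 0.47. *Hand1* (2.34 ± 0.80, adjusted p = 0.013) and *Sox11* (0.27 ± 0.10, adjusted p = 0.022) were not called. Between the GFP− populations 22.2% of genes were called, 11.1% higher and 11.1% lower in SNS. There *Tfap2b* (7.22 ± 0.38), *Tfap2a* (6.19 ± 0.47), *Insm1* (5.6 ± 0.42), *Phox2a* (3.73 ± 0.96) and *Isl1* (1.84 ± 0.56) were higher and *Sox11* was lower (-0.90 ± 0.10, adjusted p = 6.9e-11), while *Hand2* (1.53 ± 0.52, adjusted p = 0.018) and *Hand1* (1.99 ± 0.91, adjusted p = 0.091) were not called.

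These 2 comparisons moved with the scaling and with the left-out pools. With spike-in scaling 87.5% of calls were higher in SNS among GFP+ pools in place of 51.1%, and 87.7% in place of 50.1% among GFP− pools, where *Sox11* was no longer called (-0.35 ± 0.13, adjusted p = 0.017) and *Hand2* was (2.11 ± 0.51). Among GFP+ pools this scaling called all 8 factors higher, *Hand1* (3.23 ± 0.80) and *Sox11* (1.11 ± 0.12) being the additional ones. With the left-out pools kept, *Tfap2a* (1.06 ± 0.70, adjusted p = 0.25), *Isl1* (1.61 ± 0.67, adjusted p = 0.052) and *Hand2* (1.64 ± 0.55, adjusted p = 0.015) lost their call among GFP+ pools and *Sox11* gained one (0.36 ± 0.093, adjusted p = 0.0015). Among GFP− pools *Insm1* (0.16 ± 0.76, adjusted p = 0.93) and *Tfap2b* (1.88 ± 0.79, adjusted p = 0.11) lost theirs. *Phox2a*, *Isl1*, *Hand2* and *Hand1* were then below 0 among these pools, at -2.67 ± 0.93, -1.63 ± 0.69, -0.99 ± 0.57 and -2.71 ± 0.91, and not called.

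The GFP effect itself differed between SNS and MCs for *Sox11*. Of the 17309 genes 10.4% were called in this interaction, 4.73% with a higher and 5.64% with a lower log2 fold change in SNS. Among the 8 factors only *Sox11* was called, with a difference of 1.17 ± 0.14 on the log2 scale (adjusted p = 4.4e-09) between its rise in SNS and its fall in MCs. *Insm1* (1.91 ± 0.67, adjusted p = 0.038) and *Phox2a* (2.55 ± 1.53, adjusted p = 0.28) were not called. For *Isl1* the difference was -0.14 ± 0.70 (adjusted p = 0.93) and for *Hand2* 0.36 ± 0.69 (adjusted p = 0.80), intervals that allow for differences of more than 1 log2 unit. With spike-in scaling 74.0% of all interaction calls were higher in place of 45.6%, and *Sox11* was at 1.46 ± 0.18. With the left-out pools kept, *Hand1*, *Insm1* and *Phox2a* were called as well, at 4.78 ± 1.26, 3.92 ± 1.09 and 7.55 ± 1.38, and *Isl1* (3.24 ± 0.96) and *Tfap2b* (1.18 ± 1.06) changed sign without a call.

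In ECs, *Isl1* stood apart from the other factors. It had 50.4 to 171 CPM in GFP+ EC pools with a median of 109, and 0.257 to 15.5 with a median of 1.24 in GFP− EC pools. The groups did not overlap, and the rise was 5.06 ± 0.34 on the log2 scale (adjusted p = 2.2e-16), which was 4.40 ± 0.38 with spike-in scaling. Per kilobase, the median of 27.5 CPM per kb in GFP+ ECs stood next to 25.5 in GFP+ SNS. The means were 27.0 and 58.7 CPM per kb, and the mean CPM of these populations differed by less than their spread. With spike-in scaling the medians were apart, at 61.1 CPM in GFP+ ECs and 209 CPM in GFP+ SNS. Between GFP+ and GFP− ECs 36% of the 15073 genes tested were called, 19.5% higher and 16.5% lower. With spike-in scaling 14.3% of all calls were higher in place of 54.1%, since this scaling moved the median of all genes by -0.70 on the log2 scale. With the overestimated-variance test the share was 43.9%.

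*Sox11* was the only other factor with enough counts to be tested in ECs, and it was lower in GFP+ pools. Its median was 273 CPM (161 to 383) in GFP− and 163 (75.3 to 341) in GFP+ EC pools, and it fell by 0.67 on the log2 scale with an SE of 0.14 (adjusted p = 0.00012). In a fit of all 4 E10.5 populations this fall was -0.69 ± 0.32 (adjusted p = 0.068). *Hand2* was detected in 2 of 19 GFP+ EC pools, with 62 counts over all of them and 6 counts over the 20 GFP− EC pools, and without the filter on low counts it was higher in GFP+ (2.58 ± 0.74, adjusted p = 0.0059). *Phox2a* had 1 count and *Insm1* 3 counts over all GFP+ EC pools and 0 counts over all GFP− EC pools, at or under the floor in both groups. *Tfap2b* had 7 and 16 counts, *Tfap2a* 21 and 17, and *Hand1* 18 and 7.

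The other genes of the pathway differed among themselves in the same EC pools. *Th* had at most 1.07 CPM in any GFP+ EC pool, and the median GFP+ pool had 0 counts of *Th*, *Chga* and *Prph*. Of the 13 further regulators 8 were tested, 4 rose and 1 fell, and of the 20 effectors 9 were tested, 4 rose and 1 fell. Those that rose were *Ret* (4.62 ± 0.56), which encodes a receptor for neurotrophic ligands, *Slc18a2* (3.05 ± 0.17), a vesicular monoamine transporter, *Stmn2* (3.05 ± 0.21), a neuronal microtubule regulator, and *Dbh* (2.56 ± 0.68), and *Gap43*, a growth cone gene, fell (-1.67 ± 0.16). *Sox4*, the relative of *Sox11*, rose (1.58 ± 0.17) where *Sox11* fell, and *Sox12* was not called (0.39 ± 0.21, adjusted p = 0.12). Of 9 endothelial genes 8 rose and 1 fell in GFP+ ECs, and of 9 mesenchymal genes 8 were tested and all 8 rose, with sums of 25.9 to 1606 CPM in GFP+ and 3.86 to 72.5 in GFP− pools. In each list of this paragraph, a gene that reached 10 counts in GFP+ pools alone had to be higher there. *Pdgfrb*, with at most 1 count in any GFP− EC pool, was such a gene, and how many others were was not counted. Of 12 nephric duct and urogenital genes 4 were tested and 3 rose, with sums of 33.2 to 161 and 0.694 to 9.41 CPM, while the median GFP+ pool had 0 counts of *Pax2*, *Pax8*, *Lhx1*, *Wnt9b*, *Emx2* and *Cdh16*. Their part in the level of *Isl1* was not tested.

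**Figure D3:**
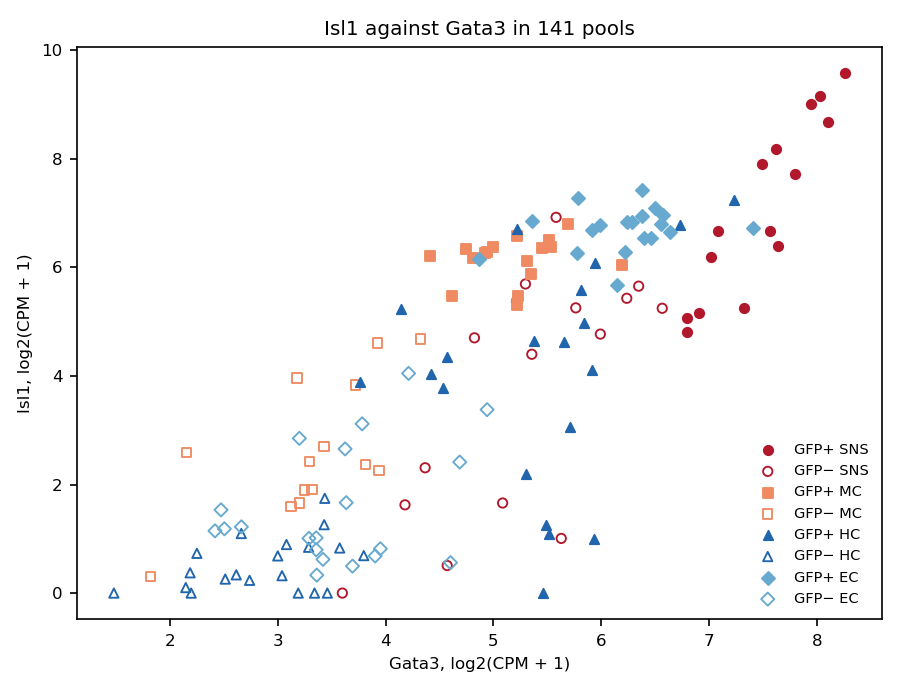
*Isl1* against *Gata3* in the 141 used pools, both as log2(CPM + 1), with filled symbols for GFP+ and open symbols for GFP− pools and 1 shape for each cell type. Pools fall into separate groups by GFP sort and cell type, with GFP+ MC and EC pools in a narrow band of *Isl1* and SNS pools along a slope.

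Over all 141 pools, *Gata3* was the gene most like *Isl1* among 19859 genes, with Pearson's r of 0.82 for log2(CPM + 1). The pools were sorted by a *Gata3* reporter and form separate clusters, so this r describes the sort as much as the pools. Within the populations in which most pools held *Isl1*, r between *Isl1* and *Gata3* was 0.91 in GFP+ SNS (15 pools), 0.70 in GFP− SNS (16 pools), 0.66 in GFP− MCs (14 pools), 0.18 in GFP+ MCs (17 pools), 0.23 in GFP+ HCs (20 pools) and 0.25 in GFP+ ECs (19 pools). The r was highest in SNS, and in the GFP+ populations of the other cell types it did not pass 0.25.

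In HCs all 8 factors were higher in GFP+ pools, and they were spread unevenly over these pools. Between GFP+ and GFP− HC pools 26.6% of the 16200 genes tested were called, 17.1% higher and 9.53% lower. For 7 of the 8, *Sox11* being the other, no GFP− HC pool had 10 counts, so that these genes entered the test through the GFP+ pools alone and had to be high there. Their count and fitted log2 fold changes are therefore given as a description. In the 20 GFP− HC pools *Phox2a* had 1 count in all, *Insm1* 4, *Hand1* 5, *Hand2* 5, *Tfap2b* 8, *Tfap2a* 10 and *Isl1* 36.

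*Isl1* and *Tfap2b* were the most widely detected of the 7. *Isl1* had at least 10 counts in 16 of 20 GFP+ HC pools, with 0 to 151 CPM and a median of 17.8. In GFP− pools it had 0 to 2.35 CPM, a log2 fold change of 6.18 ± 0.65. *Tfap2b* had at least 10 counts in 15 of 20, with 0 to 63.4 CPM and a median of 14.1, against 0 to 0.714, a log2 fold change of 7.56 ± 0.73. *Tfap2a* was detected in 10 pools (0 to 14.2 CPM, median 2.03), *Hand1* in 9 (0 to 84.4, median 3.43) and *Hand2* in 9 (0 to 54.7, median 3.95), with log2 fold changes of 4.87 ± 0.69, 7.39 ± 0.84 and 6.72 ± 0.76. In each of these 5 the highest GFP+ pools lay far above all GFP− pools and the lowest overlapped them.

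*Insm1* and *Phox2a* were found in few pools. *Insm1* was detected in 7 GFP+ HC pools (0 to 25.6 CPM, median 0.280), with a log2 fold change of 6.19 ± 0.94. *Phox2a* was detected in 5 (0 to 58.5 CPM, median 0), and 407 counts in GFP+ against 1 count in GFP− pools gave a ratio of summed CPM of 504, with a 95% counting interval of 90.0 to 19970. Its fitted log2 fold change was 7.02 ± 1.06, and the overestimated-variance test did not call it (adjusted p = 0.024). *Sox11*, which could be measured in both groups, had 12.6 to 694 CPM in GFP+ pools with a median of 283, and 0.595 to 57.9 with a median of 12.8 in GFP− pools. It rose by 3.81 ± 0.47 (adjusted p = 3.2e-08), and 19 of 20 GFP+ pools were above every GFP− pool.

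**Figure D4:**
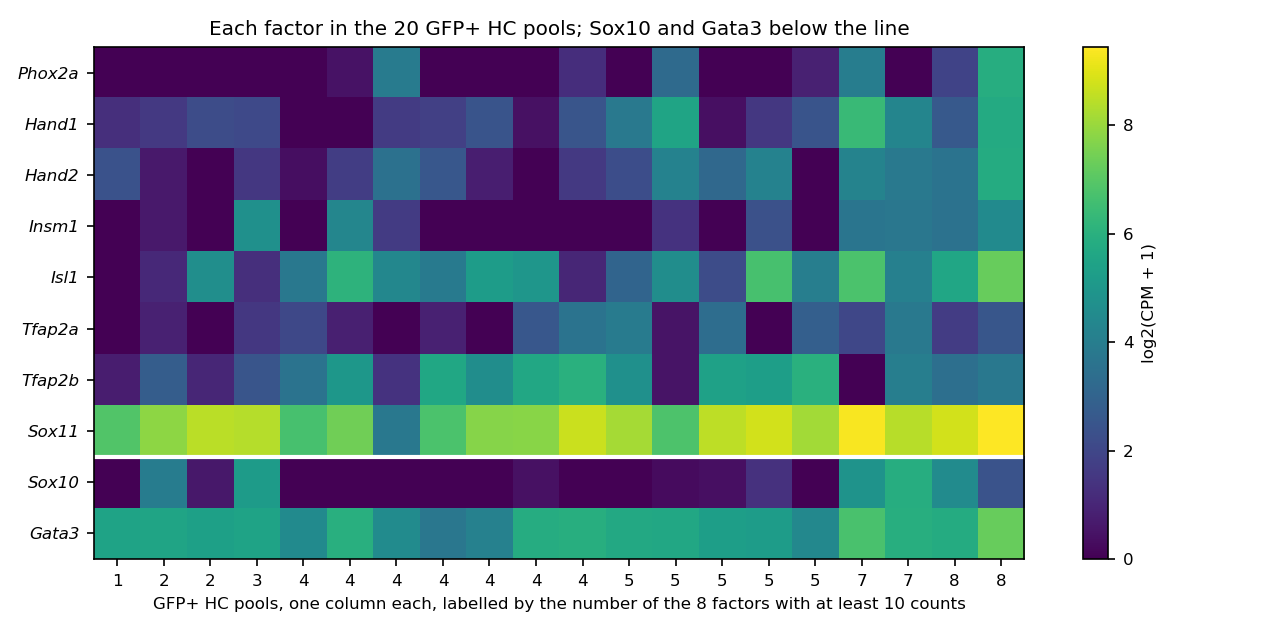
Each of the 20 GFP+ HC pools as a column, ordered by how many of the 8 factors had at least 10 counts, with log2(CPM + 1) of the factors above the white line and of *Sox10* and *Gata3* below it. *Sox11* is in every pool, *Tfap2b* and *Isl1* are in most, and *Phox2a* and *Insm1* are in few pools.

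The factors did not come and go together in the GFP+ HC pools. The number detected per pool ran from 1 to 8 with a median of 4, and 2 of the 20 pools held all 8. The pool with 1 factor had the fewest counts on genes, 1460179. Of the 2 pools with all 8, 1 had the most, 16004756, with *Phox2a* at 2.76 and *Tfap2a* at 2.20 CPM, and the other had 3106483. The part of depth in these numbers was not tested. *Sox10* was detected in 6 pools and *Th* in 7. All 5 pools with *Phox2a* held *Th*, as did 6 of the 9 pools with *Hand1*, 5 of the 9 with *Hand2* and 3 of the 7 with *Insm1*. *Tfap2b* was detected in 11 pools without *Th* and *Isl1* in 10. The pools with 0 counts of both *Phox2a* and *Insm1* ranged from 0.707 to 49.7 CPM of *Tfap2b*.

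Marker lists of several other cell types were higher in the same GFP+ HC pools. Of 20 effector genes 13 were tested and 10 rose, of 10 neural crest genes 8 were tested and 5 rose, and of 13 further regulators 10 rose, *Tlx2* (8.19 ± 0.96) among them. All 9 mesenchymal genes rose, with sums of 19 to 1119 CPM in GFP+ and 3.75 to 170 in GFP− pools, as did 7 of 9 endothelial genes (116 to 665 and 38.1 to 218 CPM). All 5 nephric and urogenital genes that were tested of 12 rose (2.11 to 171 and 1.15 to 25.5 CPM), while the median GFP+ pool had 0 counts of *Pax2*, *Pax8*, *Lhx1*, *Wnt9b* and *Cdh16*. Of 9 haematopoietic genes 1 rose and 6 fell, with sums of 2609 to 7063 and 5442 to 8044 CPM. In each of these lists, a gene that reached 10 counts in GFP+ pools alone had to be higher there. *Tlx2*, with at most 1 count in any GFP− HC pool, was such a gene, and how many others were was not counted. The part of other cells in the values of the 8 factors was not tested.

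**Figure D5:**
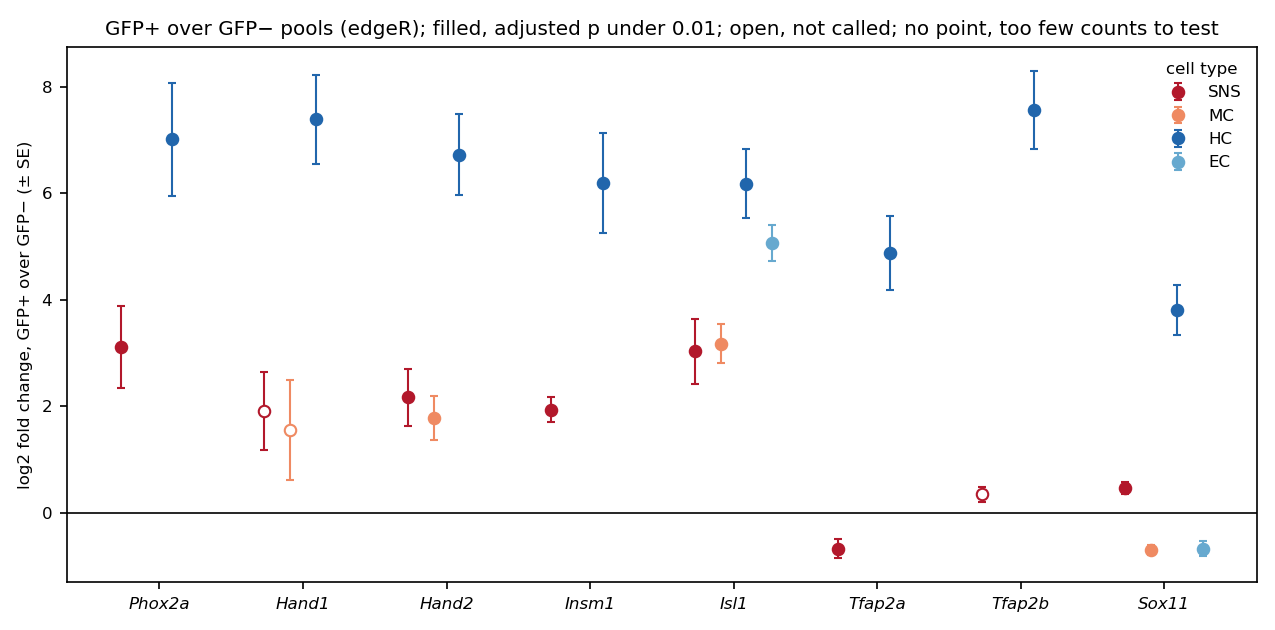
Log2 fold change of each factor between GFP+ and GFP− pools in the 4 cell types, with bars for the SE, filled points for calls at an adjusted p under 0.01 and open points for no call. Factors without a point had too few counts to be tested, *Isl1* lies above 0 in all 4 cell types (in MCs below 0 with the left-out pools kept), and *Sox11* lies above 0 in SNS and HCs and below 0 in MCs and ECs. In HCs the points of all factors but *Sox11* are a description, since the filter set their direction.

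The GFP effect of *Sox11*, the factor that reached 10 counts in pools of all 4 HC and EC populations, differed between these cell types, by 4.47 ± 0.47 on the log2 scale (adjusted p = 1.0e-12). In this interaction 22.7% of 17851 genes were called, 14.1% higher and 8.6% lower, and 5 of the 8 factors were called higher. The other 4 called factors entered the fit through the GFP+ HC pools, with at most 2 EC pools at 10 counts, so that a larger effect in HCs was set by the filter and their values are a description. For these the fitted difference was 8.69 ± 1.0 (*Tfap2b*), 6.27 ± 1.25 (*Hand1*), 4.70 ± 0.98 (*Tfap2a*) and 4.0 ± 1.17 (*Hand2*). For *Isl1* the difference was 1.13 ± 0.67 (adjusted p = 0.20), which misses the threshold and leaves room for a difference. For *Phox2a* and *Insm1*, with 0 counts in GFP− ECs, the SE of the edgeR estimate was larger than the estimate itself, and they were not called. With spike-in scaling 91.0% of all these calls were higher in place of 62.2%, and the same 5 factors were called. Without the filter on low counts 4 were called, *Hand2* being lost (adjusted p = 0.010), and by DESeq2 6 were, with *Insm1* in addition.

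Neighbours in the order of the mean levels over the 8 populations were rarely apart. GFP+ SNS stood first for *Phox2a*, *Hand2*, *Insm1*, *Isl1* and *Tfap2b*, GFP− SNS for *Tfap2a*, GFP+ HCs for *Hand1* and GFP− MCs for *Sox11*. For *Hand1* the median was higher in GFP+ SNS than in GFP+ HCs (5.40 against 3.43 CPM). With spike-in scaling its mean was too (15.4 against 8.74 CPM). After GFP+ SNS, the mean of *Isl1* followed the order GFP+ ECs, GFP+ MCs, GFP+ HCs, GFP− SNS, GFP− MCs, GFP− ECs and GFP− HCs. All 4 GFP+ means were thus above all 4 GFP− ones, but this order depended on the measure and the scaling. By the median, GFP− SNS stood above GFP+ HCs (25.7 against 17.8 CPM). With spike-in scaling its mean did too (41.6 against 28.7 CPM), and GFP+ MCs (74.1 CPM) stood above GFP+ ECs (64.3 CPM). The lowest mean of *Sox11*, in GFP− HCs, was 21.7 ± 20.8 CPM (SD, n = 20), and the highest, in GFP− MCs, was 767 ± 114 (SD, n = 14). Of the 56 pairs of neighbours over all factors, 3 had ranges of mean ± SD that did not overlap: *Insm1* in GFP+ over GFP− SNS, *Tfap2b* in GFP− SNS over GFP+ HCs, and *Sox11* in GFP+ ECs over GFP− HCs.

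By the correlation of log2(CPM + 1) over all 141 pools, the genes most like each factor were found among 19859. For *Phox2a* they were *Th* (r = 0.90), *Chga* (0.88) and *Resp18* (0.88), and for *Insm1* they included *Tlx2* (0.97). For *Hand2* they were *Hand2os1* (0.86), which shares exon bases with it, *Ndufa4l2* (0.86) and *Nefm* (0.80), and for *Hand1* *Hand2os1* (0.72), *Th* (0.72) and *Stmn3* (0.66). *Tfap2a* was closest to *Chst5* (0.91), *Tfap2b* (0.90) and *Gm26688* (0.89), the antisense gene over its exons, and *Tfap2b* to *Tfap2a* (0.90), *Nell2* (0.89) and *Chst5* (0.88). After *Gata3*, *Isl1* was closest to *Snap25* (0.76), and *Sox11* was closest to *Mdk* (0.91), *Tuba1a* (0.90) and *H2afy2* (0.90). Only the AP-2 pair had each other among the 3 closest genes. The pools share their sort, stage and depth within a population, so these values describe the 8 populations more than single pools.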

How the data were processed

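Smart-seq2 libraries of 160 pools of 20 cells with ERCC spike-in RNAs were read single-end. The deposited file holds raw counts per gene, which the authors made with HTSeq and neither normalized nor filtered. The study's methods name STAR and Ensembl release 81, while the submitters' processing notes list GSNAP 2015-09-29, HTSeq 0.5.3p3 and mm10; strand and overlap settings are not given in the sources used here. The cDNA was amplified by PCR and carried no molecular identifiers, and intervals and floors therefore cover counting error only.

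The limits on pools were 500000 reads (genes plus ERCC RNAs) as a minimum, 20% of reads on genes as a minimum, and 20% as a maximum for mitochondrial genes and for ERCC RNAs. Pools with raw *Pdgfrb* above *Ngfr* (SNS) or the reverse (MCs) were left out. Levels are CPM with TMM scaling over the 141 pools used. A gene was tested if 5 or more of the pools compared had 10 or more counts, using edgeR 4.0.16 (R 4.3.3, robust quasi-likelihood fits, Benjamini-Hochberg over all genes tested), and called where the log2 fold change was more than 0.1 in size and the adjusted p under 0.01. SEs were derived from the F statistics. SNS against MC and the interactions used 1 fit of the 4 populations of a stage. Correlations used a pseudocount of 1 CPM.

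Alternatives were DESeq2 size factors, ERCC size factors, DESeq2 1.42.0's Wald test, other filters, pools kept, 1 fit per stage, the overestimated-variance t-test that the study used, here on values scaled by scran 1.30.0, and an adjusted p under 0.05. On simulated SNS data (15175 genes), 53.6% of 2-fold and 83.8% of 4-fold changes were called with 2 false calls, and on simulated HC data (15631 genes) 48.5% and 72.3% with 2 false calls. The 8 genes, the marker lists and the rule for named genes (the 8 genes, their relatives, the marker lists and the 3 most similar genes of each) were chosen with earlier results of these data known. Some genes of the lists are not reported here by name. Gene positions are from GENCODE M21. Tables and figures were made in Python 3.11.15 with matplotlib 3.10.9, pandas 2.3.3, scipy 1.17.1 and numpy 2.4.6.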

Additional observations from a re-analysis of the deposited data

Results flagged for a closer look

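The GFP effect of *Sox11* differed between cell types of the same stage by a test of the difference itself, by 1.17 ± 0.14 on the log2 scale (edgeR, adjusted p = 4.4e-09) between SNS and MCs and by 4.47 ± 0.47 (adjusted p = 1.0e-12) between HCs and ECs. The fitted GFP effect also differed between HCs and ECs for *Tfap2b* by 8.69 ± 1.0 (adjusted p = 3.5e-11), for *Hand1* by 6.27 ± 1.25 (adjusted p = 3.7e-05), for *Tfap2a* by 4.70 ± 0.98 (adjusted p = 8.1e-05) and for *Hand2* by 4.0 ± 1.17 (adjusted p = 0.0049), each larger in HCs. These 4 genes entered the fit through the GFP+ HC pools and were near the floor in ECs, so that the filter set the direction, while *Sox11* reached 10 counts in pools of all 4 HC and EC populations. In pools that no comparison used, 7 of the 8 factors were above every used GFP− MC pool in all 3 left-out GFP− MC pools, and 3 of the 8 were above every used GFP+ MC pool in all 3 left-out GFP+ MC pools. The share of all genes that did so was not counted.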

How the results depend on the processing

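No paired analysis was possible because the columns of the count table carry no pool number. A further limit on pools, more than 8000 genes at 10 counts, left out none and so gave no values. Of 431 log2 fold changes of single factors under an alternative, 386 stayed on the same side of the threshold in the same direction and 9 reversed, all 9 with the left-out pools kept. These 9 were, on the log2 scale, *Hand1* -2.87, *Hand2* -0.68 and *Isl1* -0.67 in MCs, *Phox2a* -2.67, *Isl1* -1.63, *Hand2* -0.99 and *Hand1* -2.71 in SNS against MCs among GFP− pools, and *Isl1* 3.24 and *Tfap2b* 1.18 in the interaction of SNS and MCs. With these pools the factors called higher were 3 in SNS, 0 in MCs, 1 in GFP− SNS against MCs and 4 in the interaction, those called lower 0 in SNS and 2 in MCs, and all genes called were 625 in SNS, 698 in MCs and 1019 in GFP− SNS against MCs (main 1631, 1585 and 3847). In place of the main counts, the factors called higher were 3 in SNS by the overestimated-variance test, 1 in MCs with the pools that fail the read limits, and 2 in ECs without a filter or in the fit of 4 populations. They were 2 in the interaction of SNS and MCs by DESeq2 or at an adjusted p under 0.05, and 1 in HCs and 1 in the interaction of HCs and ECs with at least 10 counts in 20 pools, where only *Sox11* (HCs) or *Sox11* and *Isl1* had enough counts to be tested. The 1 factor called lower became 0 in SNS with ERCC scaling, without a filter and in the fit of 4 populations, 0 in ECs in that fit, and 0 in GFP− SNS against MCs with ERCC scaling. All genes called were 4460 in SNS, 10554 and 7144 in GFP+ and GFP− SNS against MCs with ERCC scaling (main 1631, 6412 and 3847), and 2643 in SNS, 2617 in MCs and 2969 in the interaction of SNS and MCs at an adjusted p under 0.05 (main 1631, 1585 and 1795). Of 128 levels, 8 moved by over 1 SD, all with ERCC scaling. ERCC scaling moved the median log2 fold change of all genes by 0.14 in MCs, 0.84 and 0.55 in GFP+ and GFP− SNS against MCs, and 0.30 and 0.63 in the interactions of E11.5 and E10.5 cells. Depth sets the floor, and levels under 0.187 to 2.14 CPM in a pool rest on fewer than 3 counts.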
